A study of Mus musculus with 6 samples.

Results

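The 41 collagen chain genes outside types I and III were followed across maps of open chromatin from newborn mouse heart nuclei. The 41 were all protein-coding genes of the GENCODE M21 annotation of mm10 whose symbols have the form Col, number, a, number, with Col1a1, Col1a2 and Col3a1 left out, and they stood among 21938 protein-coding genes in all. Open chromatin was mapped by Omni-ATAC-seq, where peaks mark the places at which a transposase reached the DNA most often. There were 6 libraries from whole hearts collected at P1, postnatal day 1, in 3 groups of 2 biological replicates. All nuclei were first purified through the denser of the 2 sucrose cushions used in the study. The study reports, mostly from older hearts, that this cushion yields nearly uniform cardiomyocyte nuclei, whereas the lighter one keeps mixed nuclei. Its authors chose the denser cushion here to compare the PCM1 maps directly with maps from the cushion alone. They also aimed to keep peaks of other cell types out of the Myc maps. Input nuclei came from wild-type hearts with no immunoprecipitation. Myc nuclei came from Nkx2-5 Cre/+; R26RSun1-Myc-Egfp/+ hearts and were pulled down with a Myc antibody, which enriches nuclei that Nkx2-5 Cre had tagged. That lineage is broader than cardiomyocytes, since Nkx2-5 is also active in progenitors of endocardial and smooth muscle cells. PCM1 nuclei came from wild-type hearts and were pulled down with an antibody against PCM1, a centriolar satellite protein that gathers at the nuclear envelope of differentiated cardiomyocytes. Genotype and antibody therefore change together between the Myc group and the other 2 groups, and their effects cannot be told apart.

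Collagens are triple-helical proteins of the extracellular matrix, and each gene encodes 1 chain of a trimer. The chains fall into families by the assemblies they form. Fibrillar chains such as those of type V co-assemble with the abundant type I and III fibrils and help set their diameter. Type IV chains build the sheet-like network of basement membranes, which in the heart surrounds every cardiomyocyte and lines vessels. Type VI chains form beaded microfibrils next to cells. FACIT chains decorate fibril surfaces, multiplexins (types XV and XVIII) sit in basement membrane zones, and transmembrane collagens remain anchored in the plasma membrane. Cardiac fibroblasts are the main source of fibrillar collagen in heart, whereas type IV chains are made by many cell types.

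The libraries held 75336 to 131500 peaks. Read totals are unknown from peak lists, so depth was taken from the background pileup, the number of overlapping fragments expected by chance, which spanned 0.903 to 3.957 and was 4.38 times higher in Input replicate 1 than in PCM1 replicate 2. Because of this, peak strength is given as a rank percentile, the place of a peak's significance among all peaks of its own library, where 100 is the strongest peak, and 0 stands for no peak. Ranks still depend on depth, since a longer list adds weak peaks below the others. With every library cut to its 75336 strongest peaks, the mean promoter rank went from 93.7 to 92.0 at Col6a2 and from 33.4 to 15.5 at Col6a6. Of 12 cardiomyocyte markers, 9 had a promoter peak in all 6 libraries, and Nkx2-5 and Tnni3 had none in any library. Promoters were scored at the outer 5′ end of the GENCODE gene. RefSeq starts were checked for the collagen chain genes alone, so these absences hold for the GENCODE start only. Of 12 fibroblast markers, 12 had a promoter peak in both Myc replicates, 9 in both Input replicates and 5 in both PCM1 replicates, and their summed ranks were 476 to 724 in Input, 671 to 762 in Myc and 322 to 370 in PCM1. Dpt, Lum and Pdgfra had none in either PCM1 library. The fibroblast list includes Col1a1, Col1a2 and Col3a1. Of 12 immune markers, 9 had no promoter peak anywhere. In such bulk preparations, fewer nuclei of a cell type and less accessibility per nucleus cannot be told apart.

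Many of the collagen promoters were open in every preparation, but most of them weakly. A peak within 1 kb of the annotated start was present in all 6 libraries for 21 of 41 genes, or 51.2%, against 56.1% of all protein-coding genes, and in no library for 8, or 19.5%, against 31.8%. Both Input replicates had a promoter peak at 23 genes (56.1% against 59.6% of all genes), both Myc replicates at 26 (63.4% against 61.8%) and both PCM1 replicates at 23 (56.1% against 57.6%). Single libraries had 24 to 31, the highest in the deepest library, Input replicate 1. The share with no promoter peak in any library was below its background, a difference that was not tested. The other shares did not stand far from theirs. The strength did: among genes with a promoter peak in all 6 libraries, the median rank of the collagen peaks was 72.1 and 56.4 in Input, 60.6 and 64.5 in Myc, then 62.8 and 63.7 in PCM1, against 93.7 and 88.6, 93.8 and 93.7, and 88.3 and 87.8 for all such genes. These medians were not tested, and with 2 libraries per group an exact permutation test between groups cannot go below a two-sided p of 0.333, or 0.133 for 2 libraries against the other 4.

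**Figure D1:**
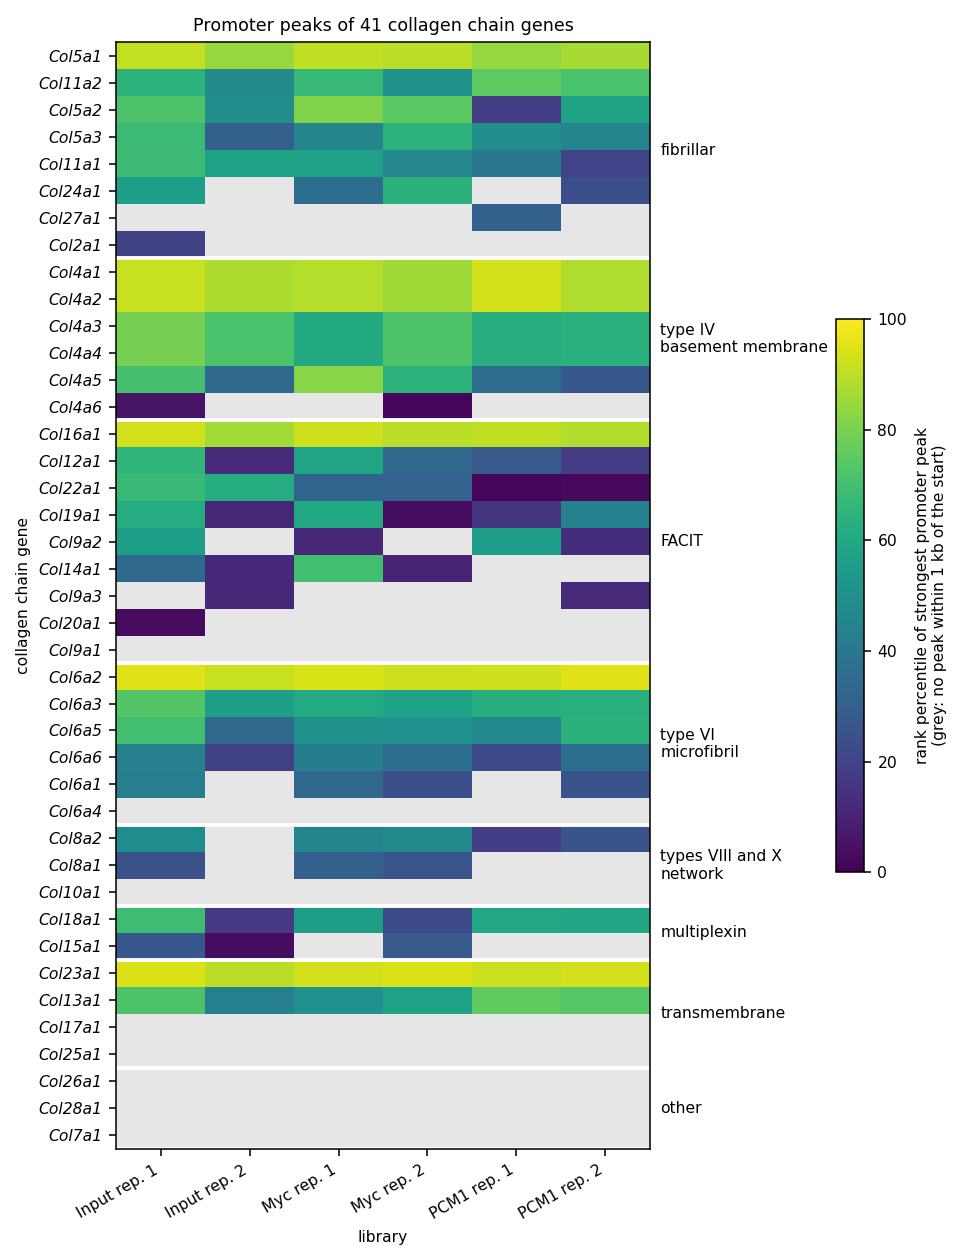
Rank percentile of the strongest peak within 1 kb of the start of each of the 41 collagen chain genes (rows, grouped by family) in each of the 6 libraries (columns); colour runs from 0 to 100 and grey means no peak. Col6a2, Col23a1, Col16a1, Col4a1, Col4a2 and Col5a1 stood out in every library, with a lowest rank of 84.1, most others lay lower, and 8 were grey throughout.

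The strongest collagen promoter belonged to Col6a2 (ENSMUSG00000020241.13, chr10:76595762-76623630, minus strand), which encodes 1 of the chains of the type VI microfibril. Its promoter peak ranked 95.6 and 91.8 in Input, 94.2 and 92.5 in Myc, then 92.9 and 95.0 in PCM1, a mean of 93.7 ± 1.52 (SD, n = 6). Col23a1 (ENSMUSG00000063564.13, chr11:51289920-51583918, plus strand), a transmembrane collagen, ranked 94.6 and 89.6, 93.0 and 94.7, and 92.0 and 93.3 in the same order. Both stayed high in every library, and their groups overlapped. Col16a1, a FACIT chain, had ranks of 93.1 and 86.2 in Input, 92.2 and 89.8 in Myc, then 90.6 and 88.4 in PCM1. Among fibrillar chains, Col5a1 (ENSMUSG00000026837.15, chr2:27886425-28039514), the main chain of type V, ranked 91.0 and 84.5, 90.3 and 89.6, and 84.1 and 86.8. After these genes and the Col4a1 and Col4a2 pair described next, the next highest mean rank was 68.5, at Col4a3 and Col4a4. Col11a2, a chain of type XI, ranked 64.8 and 47.0 in Input, 67.0 and 51.1 in Myc, then 75.1 and 71.8 in PCM1, so that both PCM1 values lay above the other 4. Col6a3, the largest type VI chain, ranked 73.3 and 56.4, 61.0 and 57.9, and 63.3 and 63.4. The remaining type VI chains were uneven: Col6a1, the obligate partner of Col6a2 in the trimer, had a promoter peak in 4 libraries with ranks of at most 42.9, and Col6a4 had none.

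The Col23a1 promoter is shown as the most CpG-rich of the group. Its observed-to-expected CpG ratio of 0.874 over 1 kb around the start was the highest among the 21 genes open in all 6 libraries. The 150 bases just before its start (GRCm38.p6, chr11:51289770-51289919, plus strand) contain 1 GC box, GGGCGG on either strand, in capitals:
Col23a1 upstream: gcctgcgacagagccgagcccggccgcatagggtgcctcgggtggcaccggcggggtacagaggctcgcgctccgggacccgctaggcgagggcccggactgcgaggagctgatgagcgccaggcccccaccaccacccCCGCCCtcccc

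For scale, the type I and III chains, which are not members, lay among the collagens above. Col1a1 ranked 86.9 and 74.2 in Input, 87.9 and 87.6 in Myc, then 79.7 and 71.5 in PCM1, below Col6a2, Col23a1 and Col5a1 in 6 of 6 libraries. Its mean of 81.3 was above that of Col4a3 and Col4a4 and of every lower member. The median ranks of the 3 chains, averaged over replicates, were 67.3 in Input, 67.1 in Myc and 48.8 in PCM1, against 52.6, 54.4 and 35.0 for the 8 fibrillar members. Col1a2 ranked 78.8 and 42.7, 59.8 and 74.4, and 51.4 and 46.2. Col3a1 ranked 60.5 and 55.8 in Input, 49.1 and 61.1 in Myc, and 33.5 in PCM1 replicate 1, with no peak in PCM1 replicate 2.

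The 6 type IV chains lie in 3 head-to-head pairs, and the pairs differed. Col4a1 and Col4a2 encode the chains of the ubiquitous type IV trimer, and their annotated starts on chromosome 8 lie 21 bp apart, so that 1 peak covers both promoters. It ranked 91.7 and 87.8 in Input, 88.7 and 85.6 in Myc, then 93.1 and 88.1 in PCM1, a mean of 89.2 ± 2.74 (SD, n = 6), and its groups overlapped. Col4a3 and Col4a4, which with Col4a5 make the trimer known from kidney glomeruli, start 72 bp apart on chromosome 1 and shared a peak of intermediate rank, 79.7 and 71.8 in Input, 60.6 and 72.5 in Myc, then 62.8 and 63.7 in PCM1. Col4a5 and Col4a6 on chromosome X start 1309 bp apart, and here the 2 genes parted. Col4a5 had a peak in all 6 libraries, with ranks of 70.6 and 34.1 in Input, 82.2 and 64.7 in Myc, then 35.3 and 27.4 in PCM1, so that both Myc values exceeded both PCM1 values. Col4a6 had only a weak peak in Input replicate 1 (5.23) and Myc replicate 2 (1.46).

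The junctions of the first 2 pairs are shown because they are the whole space between, or the overlap of, 2 divergent genes. On the plus strand of GRCm38.p6, the 22 bases at chr8:11312805-11312826 lie in the first exon of both Col4a1 and Col4a2 and hold a GC box (capitals), and the 71 bases at chr1:82586850-82586920 between the Col4a4 and Col4a3 starts hold none of the searched letters:
Col4a1 and Col4a2 overlap: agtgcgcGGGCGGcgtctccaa
Col4a4 to Col4a3 gap: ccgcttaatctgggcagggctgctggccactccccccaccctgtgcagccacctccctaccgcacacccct

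Away from the shared promoter, Col4a2 had the most regions open in every library of all 41 loci. It held 41 merged regions, 29.2 per 100 kb, of which 17 had a peak in all 6 libraries. Col4a1 held 31, of which 8 were in all 6. The strongest intronic region of Col4a2 lay 19.0 kb into the gene (chr8:11331610-11332035) and ranked 86.9 and 83.6 in Input, 90.1 and 88.8 in Myc, then 88.6 and 93.9 in PCM1, close to the promoter itself. The strongest intronic region of Col4a1 lay 15150 bp from its start and ranked 89.3 and 77.1, 88.4 and 87.0, and 86.2 and 85.9. In contrast, Col4a5 held 4 regions in 214 kb of gene, the fewest of the type IV chains, and Col4a6 held 10 in 309 kb. The 1 region in all 6 libraries at these genes was the Col4a5 promoter, which lies within 2 kb of Col4a6.

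**Figure D2:**
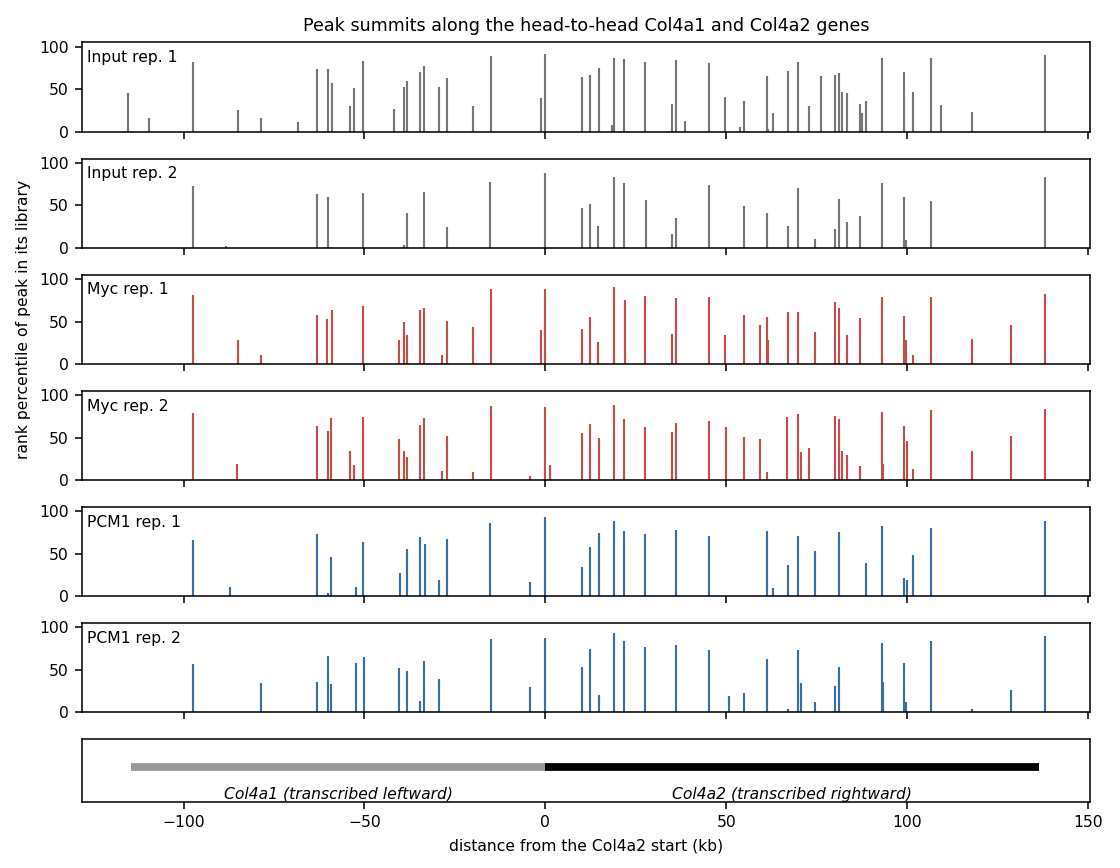
Summits of peaks along Col4a1 (leftward, grey bar) and Col4a2 (rightward, black bar) in each of the 6 libraries; the x axis is the distance from the Col4a2 start in kb and the height of each line is the rank percentile of the peak in its library. The shared promoter at 0 and a comb of intronic peaks recurred in all 6 libraries, more densely over Col4a2.

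A set of 12 promoters was open in some libraries but not in others, and 3 of these had a peak in both replicates of at least 1 group and in neither replicate of another, in each case lacking in PCM1. Col14a1, a FACIT chain of fibril surfaces, ranked 34.3 and 11.4 in Input and 69.7 and 9.51 in Myc and had no peak in PCM1. Col15a1, a multiplexin of muscle and capillary basement membranes, ranked 27.0 and 3.45 in Input, had 28.7 in Myc replicate 2 alone and none in PCM1. Col8a1, a network-forming chain of vessels, ranked 30.8 and 26.3 in Myc, had 24.8 in Input replicate 1 alone and none in PCM1. These were weak peaks, and when every library was reduced to its 75336 strongest peaks they were left in 2, 1 and 1 libraries. Background pileups were 0.977 and 0.903 in PCM1 and 1.024 in Input replicate 2, which had the Col14a1 and Col15a1 peaks but not that of Col8a1. The part of depth was not tested. The 12 fibroblast markers given above, among them Col1a1, Col1a2 and Col3a1, also had fewer promoter peaks in PCM1. By this count other lists of 12 differed less. Promoter peaks in both replicates of Input, Myc and PCM1 numbered 9, 10 and 9 for endothelial, 9, 10 and 8 for epicardial and 12, 11 and 12 for smooth muscle markers. By median rank, averaged over replicates, they did not all differ less. In the same order these were 55.2, 64.9 and 26.3 for fibroblast and 50.2, 49.9 and 22.4 for epicardial markers. They were 50.7, 69.4 and 46.7 for endothelial and 76.5, 73.7 and 72.4 for smooth muscle markers. The part of cell makeup was not tested either. The other incomplete promoters were Col8a2 (5 libraries), Col24a1, Col6a1 and Col9a2 (4 each), Col4a6 and Col9a3 (2 each), and Col27a1, Col2a1 and Col20a1 (1 each).

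The 8 genes with no promoter peak were Col10a1, Col17a1, Col25a1, Col26a1, Col28a1, Col6a4, Col7a1 and Col9a1. Col10a1 marks hypertrophic cartilage, Col7a1 and Col17a1 anchor the epidermis, and Col9a1 is a cartilage chain. So is the main cartilage collagen Col2a1, which had a single peak in Input replicate 1 (19.5). Not all cartilage chains were closed. Col9a2 and Col9a3 had a promoter peak in 4 and 2 libraries, and the type XI chains Col11a1 and Col11a2 had one in all 6. For 3 genes the absence or near absence depended on the choice of start. At Col25a1, a transmembrane collagen, the RefSeq start lies 49344 bp inside the GENCODE gene, and there all 6 libraries had a peak, ranking 91.4 and 83.8 in Input, 87.1 and 86.7 in Myc, then 75.6 and 77.9 in PCM1. At Col27a1, a fibrillar chain, the RefSeq start lies 1408 bp inside, and the ranks there were 72.3 and 47.7, 77.5 and 52.7, and 62.6 and 49.3, against a single peak in PCM1 replicate 1 (30.6) near the GENCODE start. At Col9a1, 1 of the 2 RefSeq starts had a weak peak in Input replicate 1 alone (4.37). With RefSeq starts for all members, an alternative chosen after seeing the data, 23 promoters were open in all 6 libraries and 6 in none.

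In base composition, the collagen starts were spread less between open and closed promoters than those of other genes. The median CpG ratio over 1 kb was 0.447 at the 41 starts and 0.552 at all protein-coding starts, with a median GC content of 56.0% against 54.7%. Among promoters open in all 6 libraries the ratio was 0.455 for collagens against 0.734 for all genes. The order was the opposite in the other classes, 0.497 against 0.395 for promoters open in 1 to 5 libraries and 0.307 against 0.168 for those open in none. Within the 300 bp from 250 bases before to 50 after the start, a GC box (GGGCGG, either strand) occurred in 22 of 41 collagen promoters, 53.7% against 43.0% of all genes. The ETS core CCGGAA occurred in 0 of 41 against 17.5%, the NK2 homeobox letters TNAAGTG in 7, 17.1% against 11.0%, and the TEAD letters GGAATG in 6, 14.6% against 13.5%. A CCAAT box occurred in 15 (36.6% against 39.0%), TATAAA in 4 (9.76% against 12.6%), the E-box CAGCTG in 5 (12.2% against 15.6%), AGATAA in 3 (7.32% against 10.2%), TGATAA in 1 (2.44% against 8.08%) and the AP-1 letters TGANTCA in 1 (2.44% against 6.91%). These are matches of letters, counted on both strands, and no test was made.

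Collagen genes are long, and most of their open chromatin lay inside them. Within the gene bodies plus 2 kb on each side, the 6 peak lists merged into 569 regions, 1 to 42 per gene. The median locus spanned 123.8 kb against 21.4 kb for all protein-coding genes, and the density was similar, 12.2 against 11.1 regions per 100 kb. Introns held 481 of the 569 regions, promoters 36, other annotated starts of the same gene 12, and the rest fell in upstream (8) and downstream (15) flanks, coding exons (10) and untranslated exons (7). All 6 libraries had a peak at 148 regions, 26.0% against 31.9% of the 106888 regions at all protein-coding loci, and in 1 library alone at 176, 30.9% against 29.3%. Promoter regions were the most constant, 19 of 36 being in all 6 libraries, against 118 of 481 intronic ones. The shares over all protein-coding loci were not matched for place, and the part of place in the differences from them was not tested.

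Family by family, the share of regions in all 6 libraries ran from 15.8% for the network chains of types VIII and X (3 of 19) and 17.4% for FACIT chains (16 of 92) to 29.8% for type IV (31 of 104), 29.9% for fibrillar chains (29 of 97) and 35.6% for type VI (16 of 45). The transmembrane chains had the most regions, 121, of which 27 were in all 6. The 10 loci with the most regions were Col23a1 and Col25a1 (42 each), Col4a2 (41), Col4a1, Col5a1 and Col18a1 (31 each), Col14a1 (29), Col13a1 (27), Col15a1 (22) and Col27a1 (21). Their constancy differed: 11 of 27 regions of Col13a1 and 10 of 21 of Col27a1 were in all 6 libraries, against 4 of 42 at Col25a1 and 3 of 29 at Col14a1. At Col14a1 the libraries had 21 and 8 regions in Input, 13 and 15 in Myc, then 5 and 6 in PCM1. At Col13a1 they had 23 and 15, 18 and 19, and 19 and 19.

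**Figure D3:**
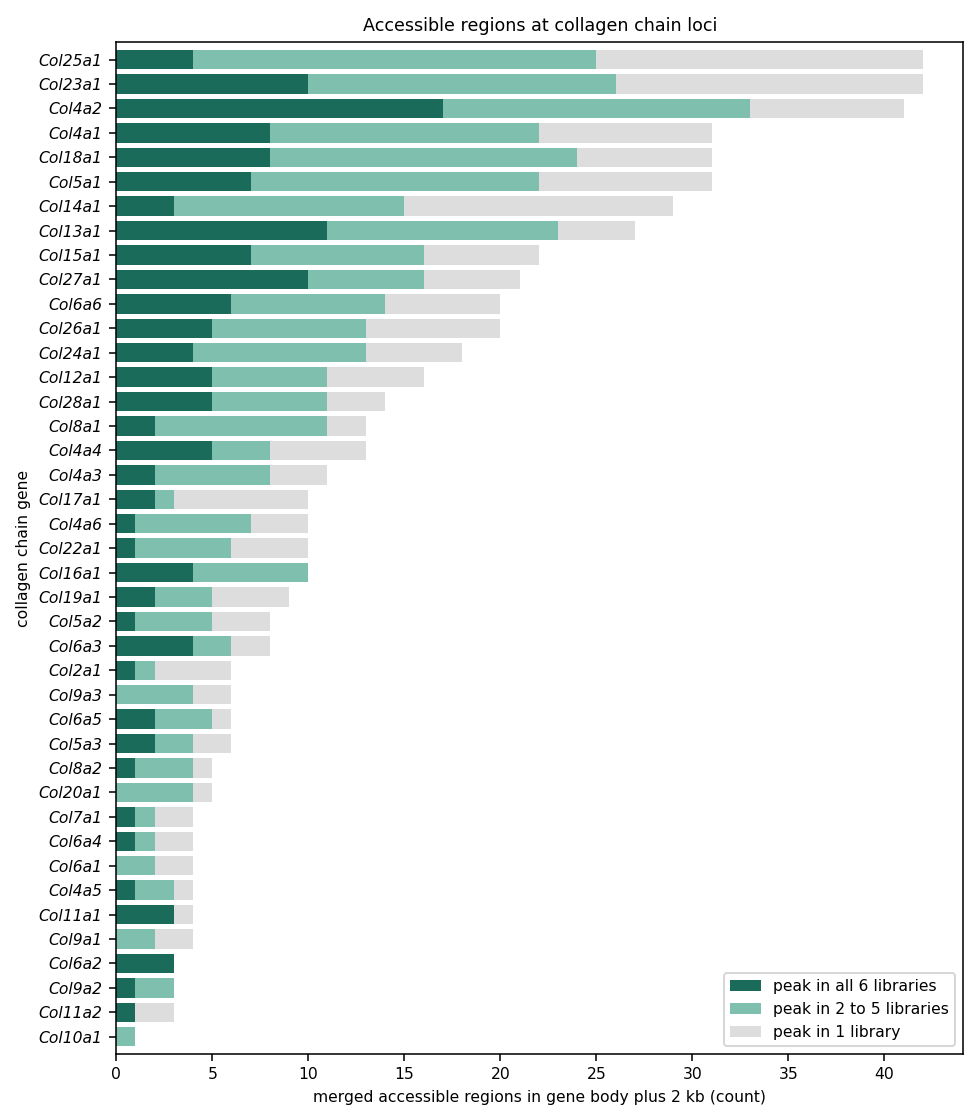
Number of merged accessible regions in the gene body plus 2 kb of each of the 41 collagen chain genes, split into regions with a peak in all 6 libraries (dark), in 2 to 5 (light) and in 1 (grey). Col4a2 had the most regions in all 6 libraries, 17 of 41, whereas Col25a1 had 4 of 42.

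At most collagen loci the strongest region was not the promoter. The region of highest mean rank covered the promoter window at 11 of 41 loci, 26.8% against 62.9% of the 17695 protein-coding loci that held a region, and among loci of 100 kb or more at 8 of 26, 30.8% against 46.5%. Col6a2 had a second region nearly as strong as its promoter 20.8 kb into the gene (chr10:76602471-76603230), which ranked 94.3 and 90.9 in Input, 90.4 and 89.0 in Myc, then 97.3 and 97.2 in PCM1. At Col27a1, 3 intronic regions 77.3, 96.7 and 46.6 kb into the gene had mean ranks of 93.0, 92.3 and 90.3. Col16a1 had one 34.1 kb into the gene with a mean rank of 91.9, and Col23a1 one 249.8 kb in at 90.9. Genes with a weak or missing promoter peak had strong intronic regions as well. Col2a1 had one 11.6 kb from its start that ranked 89.7 and 87.4 in Input, 92.0 and 91.7 in Myc, then 90.5 and 89.2 in PCM1, and Col17a1 one at 33.0 kb that ranked 89.8 and 84.9, 91.3 and 89.1, and 87.1 and 85.5. The single highest-ranked region at any collagen locus, with a mean rank of 97.9, lay in the downstream flank of Col23a1 at the start of the neighbouring gene Phykpl.

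Few collagen regions were particular to 1 preparation by presence. Peaks in both replicates of 1 group and in no other library were found at 16 of the 569 regions. For Myc these were 12 regions, 2.11% against 1.55% of regions at all protein-coding loci, for Input 3 (0.527% against 1.08%) and for PCM1 1 (0.176% against 0.285%). Of the Myc regions, the strongest in both replicates was in an intron of Col4a2 (chr8:11372001-11372336), with ranks of 45.6 and 48.5, followed by a coding exon region of Col28a1 (chr6:8086877-8087186) with 41.1 and 40.6. An intronic region of Col23a1 (chr11:51502364-51502658) had 23.6 and 36.4, one of Col18a1 (chr10:77064698-77064988) had 28.8 and 22.8, and one of Col25a1 (chr3:130574686-130574983) had 20.7 and 71.0. The Input regions were in introns of Col18a1 (43.4 and 24.0, and 9.20 and 26.0) and Col16a1 (26.6 and 19.2), and the PCM1 region was in an intron of Col20a1 (11.3 and 13.4). All of these were middling or weak peaks, and leaving out Input replicate 2 raised the count from 16 to 82, since a group of 1 library then needs 1 peak. Without the other libraries in turn it was 52 (Input replicate 1), 53 and 60 (Myc replicates 1 and 2) and 32 and 42 (PCM1 replicates 1 and 2).

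A further 17 regions had peaks in both Input and both Myc replicates and in neither PCM1 library, 2.99% against 1.99% of regions at all protein-coding loci. All 17 were intronic, as were 84.5% of the 569 regions, and came from 14 genes, with 3 in Col4a2 and 2 in Col27a1. The highest ranks were at Col5a1 30.1 kb from its start, 66.3 and 66.8 in Input and 28.2 and 64.5 in Myc, and at Col19a1, 61.7 and 39.4 in Input and 51.0 and 55.9 in Myc. The opposite patterns were rare among collagens and other loci alike: a coding exon region of Col6a3 lacked a peak in both Myc libraries alone (0.176% against 0.312%), and an intronic region of Col4a1 lacked one in both Input libraries alone (0.176% against 0.1%). PCM1 had the lowest background pileups, 0.977 and 0.903, against 1.024 in Input replicate 2, which by definition had a peak at all 17. The fibroblast markers had their fewest promoter peaks in PCM1. The part of either in these counts was not tested.

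The Myc-only region of Col4a2 is shown around the summit of its strongest peak, since it lies in the locus with the most constant regions (GRCm38.p6, chr8:11372121-11372321, plus strand). The 201 bases hold the AP-1 letters TGANTCA 2 times and TATAAA 1 time, in capitals:
Col4a2 intron, Myc only: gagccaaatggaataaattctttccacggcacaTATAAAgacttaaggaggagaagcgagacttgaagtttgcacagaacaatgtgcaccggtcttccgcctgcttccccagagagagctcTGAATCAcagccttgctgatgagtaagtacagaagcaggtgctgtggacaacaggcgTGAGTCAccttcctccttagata

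Signal was then compared between groups at the regions with a peak in every library, 48861 genome-wide and 148 at collagen loci, where each library gives a summit pileup. A region open in some libraries only has no such value, so this comparison leaves out the other collagen regions and says nothing about them. Pileups were put on a log2 scale, quantile normalized and compared with limma, with p-values adjusted over all 48861 regions by Benjamini-Hochberg and a region called at an adjusted p under 0.05. The p-values measure the spread between 2 biological replicates per group, with 3 residual degrees of freedom and a spread shared across regions.

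Between Myc and PCM1, 29 collagen regions were called. Signal was lower in Myc at 20, 13.5% against a background of 13.8%, and higher in Myc at 9, 6.08% against 14.7%. The median difference over the 148 regions was -0.19 on the log2 scale, against -0.01 over all regions. The share lower in Myc was thus close to the background. The share higher in Myc was below it by pileup, but with log2 fold enrichment in place of pileups it was 4.05% against 4.49%. Of the 29, 11 kept their call when each library was left out in turn, 10 of them lower in Myc. The count fell to 17 without Myc replicate 1, and to 19 without Myc replicate 2. The 9 regions higher in Myc became 1 and 3 without Myc replicates 1 and 2, and 4 and 6 without PCM1 replicates 1 and 2, whereas 16 to 21 were lower in Myc with any 1 library left out. Summed promoter ranks of the fibroblast markers moved the same way as the regions higher in Myc (671 to 762 in Myc, 322 to 370 in PCM1), and so did those of endothelial (645 to 700 and 462 to 569), epicardial (566 to 588 and 345 to 416) and smooth muscle markers (783 to 876 and 700 to 764). Those of the cardiomyocyte markers were 774 to 830 in Myc and 844 to 851 in PCM1, and the part of cell makeup in the differences was not tested. Nor was that of list length, on which ranks depend, with 107216 and 108513 peaks in Myc and 83139 and 81487 in PCM1.

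Of the 20 regions lower in Myc 15 were intronic, 75.0% against 79.7% of the 148 tested. At Col6a2, the strong region 20.8 kb into the gene had normalized log2 pileups of 6.81 and 6.89 in Input, 6.46 and 6.28 in Myc, then 7.69 and 7.73 in PCM1. Both PCM1 values lay above, and both Myc values below, the Input values. Myc was below PCM1 by 1.33 ± 0.15 (SE; adjusted p = 1.27e-07, limma), a signal 2.52-fold higher in PCM1. A second intronic region of Col6a2, 11.0 kb into the gene, had 4.21 and 4.71, 3.74 and 3.73, and 5.14 and 5.20. Myc fell by 1.43 ± 0.33 there (adjusted p = 0.00143, limma). Col13a1, a transmembrane collagen found at neuromuscular and other cell contacts, had a region 72.7 kb into the gene with 6.51 and 6.39 in Input, 5.29 and 5.41 in Myc, then 6.74 and 6.79 in PCM1. The difference there was -1.41 ± 0.20 (adjusted p = 3.03e-06, limma). Col16a1, 34.1 kb into the gene, had 7.13 and 7.17 in Input, 6.16 and 6.08 in Myc, then 7.29 and 7.47 in PCM1, a difference of -1.26 ± 0.16 (adjusted p = 5.09e-07, limma). In these 4 regions no Myc value reached any Input or PCM1 value. A region of Col4a2 61.4 kb into the gene had 4.88 and 4.04 in Myc and 5.96 and 5.60 in PCM1. Its difference of -1.32 ± 0.31 had an adjusted p of 0.00187 (limma), which rose to 0.0761 without Myc replicate 2.

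Other regions lower in Myc with each library left out in turn were at Col18a1, whose product yields endostatin, 6.8 kb into the gene (-1.14 ± 0.25), at Col15a1 at 19.8 kb (-1.09 ± 0.20), at the Col13a1 promoter (2.01-fold higher in PCM1), at Col27a1 at 46.6 kb (-0.98 ± 0.18) and 96.7 kb (-0.80 ± 0.16), and downstream of Col4a2 (-0.90 ± 0.18). The shared Col4a1 and Col4a2 promoter was also called lower in Myc, with a difference of -0.53 ± 0.16 (adjusted p = 0.0144, limma), but not without Myc replicate 2 or PCM1 replicate 1.

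The regions higher in Myc than in PCM1 were led by 2 promoters. The Col5a2 promoter had normalized log2 pileups of 4.64 and 4.62 in Input, 5.66 and 5.22 in Myc, then 3.71 and 4.74 in PCM1, a difference of 1.22 ± 0.34 (adjusted p = 0.0072, limma). Both Myc values were the highest, but the call was lost without Myc replicate 1 or PCM1 replicate 1, with adjusted p up to 0.161. The Col4a5 promoter had 4.51 and 4.06, 5.52 and 4.71, and 4.03 and 3.90, a difference of 1.15 ± 0.35 (adjusted p = 0.0121, limma). It lost its call without Myc replicate 1 (adjusted p = 0.246). The one region higher in Myc that kept its call under every alternative lay 86.5 kb into Col28a1, a gene with no promoter peak. It had 6.19 and 6.10 in Input, 6.26 and 6.19 in Myc, then 5.00 and 5.41 in PCM1, so that both PCM1 values stood apart below the other 4. The difference was 1.02 ± 0.23 (adjusted p = 0.00105, limma). The weaker calls at Col28a1 97.8 kb into the gene (0.96 ± 0.34) and Col19a1 at 33.8 kb (0.96 ± 0.34) had adjusted p-values of 0.0341 and 0.0351 (limma). Both calls were lost without either Myc replicate or PCM1 replicate 2, and that at Col19a1 also without PCM1 replicate 1.

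**Figure D4:**
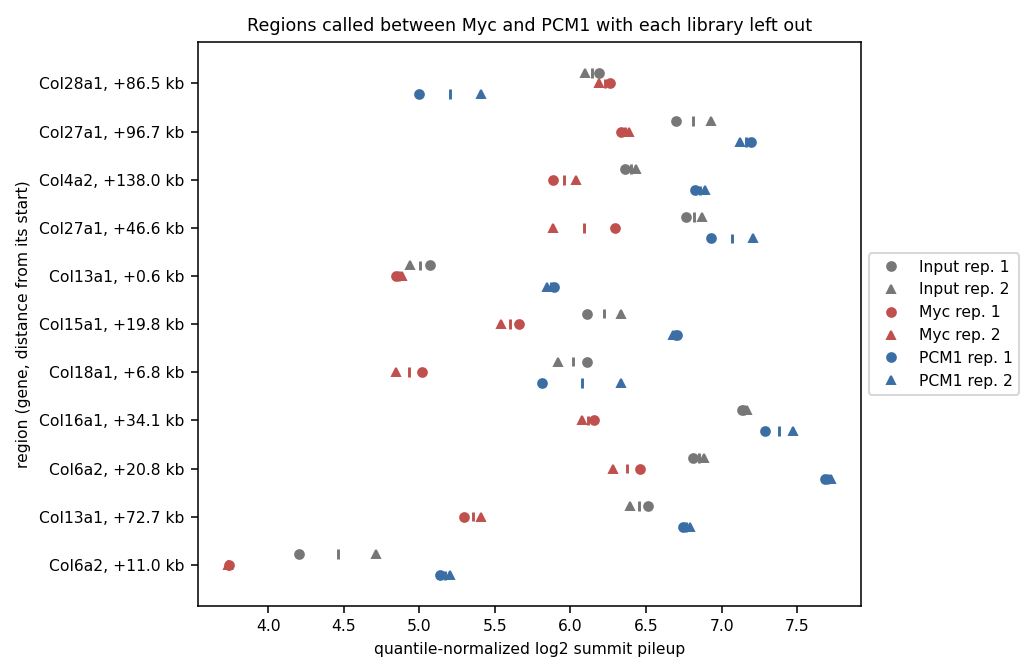
Quantile-normalized log2 summit pileup (x axis) in each library at the 11 collagen regions whose call between Myc and PCM1 was kept with each library left out; circles are replicate 1, triangles replicate 2 and vertical ticks group means (grey, Input; red, Myc; blue, PCM1). Myc was lowest at 10 regions, and PCM1 was lowest at the Col28a1 region.

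Of the 29 calls, 7 held under every alternative tried: the Col28a1 region and the 6 regions of Col13a1 (72.7 kb), Col6a2 (20.8 kb), Col16a1, Col18a1, Col15a1 and Col27a1 (96.7 kb). Their sequences are shown because these are the differences that depended least on processing. Each line gives the 201 bases around the summit of the strongest peak on the plus strand of GRCm38.p6, all within introns, with matches to the short letter motifs given above in capitals, and to MEF2 sites by name. The windows were chr6:8105968-8106168, chr10:61906343-61906543, chr10:76602769-76602969, chr4:130081795-130081995, chr10:77159666-77159866, chr4:47227884-47228084 and chr4:63310564-63310764.
Col28a1 intron, higher in Myc: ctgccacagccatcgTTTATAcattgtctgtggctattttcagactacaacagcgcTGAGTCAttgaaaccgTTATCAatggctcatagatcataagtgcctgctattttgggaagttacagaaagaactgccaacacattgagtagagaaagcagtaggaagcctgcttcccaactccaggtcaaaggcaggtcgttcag
Col13a1 intron, lower in Myc: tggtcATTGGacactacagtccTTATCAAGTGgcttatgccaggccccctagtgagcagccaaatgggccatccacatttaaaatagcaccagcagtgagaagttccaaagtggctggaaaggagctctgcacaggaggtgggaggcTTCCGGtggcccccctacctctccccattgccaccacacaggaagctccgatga
Col6a2 intron, lower in Myc: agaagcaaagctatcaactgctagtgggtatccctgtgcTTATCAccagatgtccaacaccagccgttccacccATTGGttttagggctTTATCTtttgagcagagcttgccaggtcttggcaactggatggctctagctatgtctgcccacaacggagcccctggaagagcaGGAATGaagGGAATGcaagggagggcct
Col16a1 intron, lower in Myc: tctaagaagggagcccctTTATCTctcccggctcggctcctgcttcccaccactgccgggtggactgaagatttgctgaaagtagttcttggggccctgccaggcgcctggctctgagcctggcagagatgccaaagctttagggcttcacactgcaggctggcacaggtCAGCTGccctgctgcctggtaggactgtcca
Col18a1 intron, lower in Myc: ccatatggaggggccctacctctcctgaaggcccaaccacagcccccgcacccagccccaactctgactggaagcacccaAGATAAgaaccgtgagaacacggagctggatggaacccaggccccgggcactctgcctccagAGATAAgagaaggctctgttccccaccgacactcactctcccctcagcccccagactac
Col15a1 intron, lower in Myc: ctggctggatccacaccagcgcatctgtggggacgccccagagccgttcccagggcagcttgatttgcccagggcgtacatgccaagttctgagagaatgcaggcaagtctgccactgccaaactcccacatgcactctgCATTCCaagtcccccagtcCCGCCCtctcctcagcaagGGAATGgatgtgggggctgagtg
Col27a1 intron, lower in Myc: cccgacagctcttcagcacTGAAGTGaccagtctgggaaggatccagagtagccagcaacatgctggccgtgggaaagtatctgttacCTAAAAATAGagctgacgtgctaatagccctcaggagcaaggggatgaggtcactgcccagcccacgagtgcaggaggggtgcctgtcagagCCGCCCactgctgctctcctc

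The GATA letters AGATAA or TGATAA, on either strand, occurred in the windows of Col28a1, Col13a1, Col6a2, Col16a1 and Col18a1. In Col13a1 the TGATAA match overlaps an NK2 match. The TEAD letters GGAATG occurred 2 times each in Col6a2 and Col15a1, and a MEF2 site in Col27a1. Over the same 201-base windows, AGATAA was present at 10.1% of the 148 collagen regions and 10.2% of all 48861 regions, TGATAA at 8.11% against 7.27%, TNAAGTG at 12.2% against 9.35%, GGAATG at 20.3% against 14.2%, the MEF2 site at 4.05% against 5.55%, and CCGGAA at 4.05% against 9.06%. These windows were picked by their signal, so the matches are a description of 7 sequences.

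Against Input, Myc had 14 collagen regions called, 13 lower (8.78% against 6.74%) and 1 higher (0.676% against 4.72%). All 14 were intronic, as were 118 of the 148 regions tested. The calls that held with each library left out were the same Col13a1 region (-1.10 ± 0.20, adjusted p = 0.000365, limma) and Col16a1 region (-1.03 ± 0.16, adjusted p = 4.66e-05, limma) whose values were given above. Both were lost with log2 fold enrichment in place of pileups and with no variance trend, where no collagen region was called for Myc against Input (0 calls each, limma; at an unadjusted p under 0.05 the fit reported had 32). The Col18a1 region at 6.8 kb (-1.08 ± 0.25, adjusted p = 0.00397, limma) was not called without either Input replicate or Myc replicate 2. Col24a1 at 170.1 kb (-1.22 ± 0.33) and Col8a1 at 88.4 kb (-1.11 ± 0.33) were not called without any one of the Input and Myc libraries, with adjusted p up to 0.132 and 0.288 in limma. The region higher in Myc, 113.1 kb into Col8a1 (1.23 ± 0.34), had 3.79 and 3.54 in Input, 5.14 and 4.66 in Myc, then 4.63 and 4.39 in PCM1 and was not called without either Input replicate or Myc replicate 1. The count was 3 and 2 without Input replicates 1 and 2, and 4 and 7 without Myc replicates 1 and 2. In all, 9 regions, 6.08% against 4.92% of all 48861, were called lower in Myc both against Input and against PCM1, contrasts that share the Myc libraries.

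PCM1 against Input gave 10 calls, 6 higher (4.05% against 3.63%) and 4 lower (2.7% against 5.22%). The higher regions included the Col6a2 region at 20.8 kb (0.86 ± 0.15, adjusted p = 0.000635, limma), the one call that held with each library left out, though not with log2 fold enrichment or no trend. At Col4a2, the region 61.4 kb into the gene had a difference of 0.98 ± 0.31 and the one at 36.1 kb had 0.92 ± 0.30, with adjusted p-values of 0.0464 and 0.0483 (limma). Col15a1 at 102.8 kb had 1.06 ± 0.32 and the Col13a1 promoter 0.86 ± 0.27. These 4 calls were each lost without Input replicate 2 or PCM1 replicate 2, with adjusted p up to 0.659, and that at the Col13a1 promoter without any 1 of the 6 libraries.

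The largest decrease in PCM1 was at the promoter of Col22a1, a FACIT chain known from muscle-tendon junctions. Normalized log2 pileups there were 4.28 and 4.86 in Input, 3.68 and 3.65 in Myc, then 3.05 and 3.05 in PCM1, and promoter ranks were 67.8 and 61.9, 32.1 and 31.6, and 1.94 and 2.01. The 3 groups did not overlap. The difference of PCM1 from Input was -1.52 ± 0.35 (adjusted p = 0.00598, limma), a 2.87-fold difference, and the call was lost without Input replicate 2 (0.165). The 2 PCM1 values rest on pileups of 6 fragments each, just above the lowest pileup, 5, at which a peak was called there. Col12a1, a FACIT chain, was lower in PCM1 101.2 kb from its start (-0.96 ± 0.21, adjusted p = 0.00482, limma), as were the Col28a1 region at 86.5 kb (-0.94 ± 0.23) and the internal start of Col25a1 (-0.73 ± 0.21). These 3 lost their calls without either Input replicate, the second also without PCM1 replicate 1 and the third without PCM1 replicate 2. Without Input replicates 1 and 2 the count for this contrast was 5 and 1, and without either PCM1 replicate it was 6.

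The 150 bases just before the Col22a1 start (GRCm38.p6, chr15:72034228-72034377) and the Col5a2 start (chr1:45503283-45503432), both on the minus strand, are set side by side because these promoters gave the largest promoter differences between groups. Col22a1 has 3 GC boxes, in capitals, and a GC content of 69.3%, while Col5a2 has none and 39.3%:
Col22a1 upstream: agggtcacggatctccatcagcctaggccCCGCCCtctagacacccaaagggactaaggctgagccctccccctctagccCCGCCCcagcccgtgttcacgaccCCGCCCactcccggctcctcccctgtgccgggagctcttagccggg
Col5a2 upstream: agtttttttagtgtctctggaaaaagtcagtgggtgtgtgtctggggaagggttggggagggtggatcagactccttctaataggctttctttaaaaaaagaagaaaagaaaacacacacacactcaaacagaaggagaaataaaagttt

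Most promoters of the enzymes that modify and fold collagen chains were open throughout. Of 18 genes, 16 had a promoter peak in all 6 libraries, 88.9% against 56.1% of all protein-coding genes, a difference that was not tested, with Colgalt1, Ppib, P4hb and P4ha1, a galactosyltransferase, a prolyl isomerase and both kinds of prolyl 4-hydroxylase subunit, at mean ranks of 99.6, 99.4, 99.4 and 98.8. Fkbp14 had none, and P4ha3 had one in 3 libraries. Of 15 genes for secretion, trimming and crosslinking, 11 (73.3%) were open in all 6, led by the export factor Mia3 (95.1), and Loxl2, Mia2 and Pcolce had none. Of 15 other basement membrane genes 12 (80.0%) were open in all 6, with Lamc1 (97.2), Agrn (96.7) and Hspg2 (95.1) the highest and Lama2, a chain of muscle laminin, without a peak at its annotated start. Receptors were open in all 6 at 6 of 11 genes (54.5%), Itgb1 (97.2) and Itga1 (86.4), which pair as a collagen-binding integrin, being the highest and Ddr1, Gp6 and Lair1 having none. Among turnover genes 8 of 11 (72.7%) were, led by the inhibitors Timp2 (95.4) and Timp3 (88.3), while Mmp9 and Mmp13 had none. RefSeq starts were not checked for the genes of these lists, so the absences hold for the GENCODE start only.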

How the data were processed

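Open chromatin was measured by Omni-ATAC-seq in 6 libraries (3 groups, 2 biological replicates each), and grouping followed the sample labels. Per the submitters' processing notes and the methods of the study, the authors aligned reads to mm10 with Bowtie2 2.3.3.1, marked duplicates with Picard 2.2.1, removed blacklisted regions with bedtools 2.7.1, corrected cut sites for the Tn5 offset, and ran the peak caller MACS2 on every library alone, without a control, in version 2.1.0.20160309 at a q-value of 0.05. The deposited peak lists give, for each peak, its positions, a browser score, the fold enrichment ratio over background at the summit, and −log10 p and −log10 q values; the browser score was not used.

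Gene models were those of GENCODE M21, with the gene's outer 5′ end as start. A promoter peak overlapped the start ± 1 kb by at least 1 bp, and regions were peaks merged over the 6 libraries that overlapped the gene body plus 2 kb. Peaks were ranked within each library by −log10 q. Summit pileups were recovered from the deposited fold and −log10 p, which gave whole numbers within 0.02 for 99.998% to 100% of peaks. Regions with a peak in all 6 libraries were compared with limma 3.58.1 (R 4.3.3, trended variance, prior df 28.78) in 1 fit of 3 groups, and the fit was tested on simulated data. The simulated data had a fixed spread and far fewer changed regions than were called between Myc and PCM1. They therefore do not show how the fit performs on these libraries. Deviations of replicates with the same number were nearly uncorrelated across groups (0.0045, -0.0039 and 0.0057), and the fit has no block. In the study, input was an aliquot of cushion-purified nuclei and the rest went to pulldown. Libraries of different groups may therefore share a preparation, which these correlations cannot exclude, since the replicate numbers need not match. Python 3 scripts (numpy, pandas, pysam, matplotlib) read sequences from the RefSeq GRCm38.p6 genome, the assembly on which mm10 is based. No peak means none at the authors' threshold, which a shallow library reaches less often.

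Values are given for the 10 promoters of highest mean rank, for promoters split between groups, the 10 loci with most regions, all type IV chains, up to 5 regions particular to each group, up to 5 called regions per contrast and direction, and Col1a1, Col1a2 and Col3a1; other regions named were chosen after their values were seen. The members and gene lists were chosen with earlier results of these data known. Alternatives were other promoter windows and starts, other locus limits, q of 0.01, an equal number of peaks, other normalizations and fits, and leaving out each library.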

Additional observations from a re-analysis of the deposited data

How the results depend on the processing

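The main counts of collagen promoters and regions stayed within 1.5 times their values under every alternative run, except the 16 regions particular to 1 group. These became 32 to 82 with 1 library left out, since a group of 1 library then needs 1 peak. Among secondary results, 15 alternative values moved as well. The promoters open in all 6 libraries numbered 18 (200 bp window) to 26 (2 kb window). The counts of called regions depended on the fit. With log2 fold enrichment in place of pileups, 0, 1 and 12 collagen regions were called for Myc against Input, PCM1 against Input and Myc against PCM1 (6 higher and 6 lower), where the fit reported had 14, 10 and 29, and genome-wide calls fell to 100, 163 and 3605. With 1 variance prior for all regions and no trend, 0, 0 and 21 were called. At an unadjusted p under 0.05 the fit reported had 32, 31 and 48 collagen regions. With 1 library left out the counts spanned 2 to 18, 1 to 7 and 17 to 27. Without the lowest 25% of regions by signal, Myc against PCM1 had 4 higher and 21 lower. The fit with the replicate number as a block gave 14, 10 and 30 calls and changed no count by over 1.5 times. Of 25 named region differences, none changed direction under any alternative, and in 179 of 268 refits the call was kept. By fold enrichment in place of significance, the mean promoter rank of Col4a1 and Col4a2 was 69.9 and not 89.2. The causes of these shifts were not tested. The background pileup was 0.903 to 1.024 in PCM1 and Input replicate 2, against 3.957 in Input replicate 1, and the part of depth in absent weak peaks was not tested.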
